A study of Mus musculus with 8 samples.

Results

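The receptors for the constant part of immunoglobulin G (IgG) are Fcgr1, Fcgr2b, Fcgr3 and Fcgr4, and Fcer1g is the signalling chain that their activating members share. They were measured by RNA sequencing in cells sorted from tumours and called neutrophils in the labels. The 5 genes were chosen by symbol, and each had 1 row among 25572 gene identifiers. All 5 passed the filter on low counts, as did 13575 genes in all. The cells came from PyMT-N tumours grown in C57/B6 mice, with no genetic change or treatment of the mice in the labels, and PyMT-N is not described further there. They were sorted by surface ICAM1, an adhesion molecule also called CD54, into an ICAM1-high fraction (cd54+ in the sample titles) and an ICAM1-low fraction (cd54-), with 4 libraries of each, numbered 1, 2, 3 and 5. Each library was made from 150 pg of total RNA. Nothing in the labels ties a library to its own animal, and p-values here cover only how these libraries vary, which may in part be technical. Values of a fraction are listed below in the order of replicates 1, 2, 3 and 5.

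Fc gamma receptors let leukocytes bind IgG on coated particles and in immune complexes. The activating receptors carry no signalling motif of their own and pair with the Fcer1g chain, whose immunoreceptor tyrosine-based activation motif (ITAM) is phosphorylated by Src family kinases and then recruits the kinase Syk. Fcgr2b carries an inhibitory motif (ITIM) in its own tail, which recruits the phosphatase SHIP1 and dampens activation when both kinds of receptor are engaged together. Fcgr1 binds monomeric IgG with high affinity and is best known from monocytes and macrophages, whereas Fcgr3, Fcgr4 and Fcgr2b mainly bind IgG in complexes, and mouse neutrophils are known to carry Fcgr3 and Fcgr4.

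The coding stretches of the 2 signalling motifs are shown because they separate the activating chain from the inhibitory receptor. They were read from GENCODE M21 transcripts on GRCm38, and capitals mark the codons of the tyrosines that become phosphorylated. The Fcer1g stretch spans chr1:171229889-171230072 on the minus strand, introns included, and the Fcgr2b stretch is at chr1:170961071-170961088 on the minus strand.
Fcer1g ITAM: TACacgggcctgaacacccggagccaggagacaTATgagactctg
Fcgr2b ITIM: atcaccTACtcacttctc
A search for the ITAM pattern found 1 in the 86 codons of Fcer1g and 0 in the coding sequences of the 4 receptors.

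Fcgr2b and Fcgr3 are close paralogs, which bears on how reads were divided between them. Their coding sequences were 83.9% identical over 784 aligned bases, against 58.6% to 63.5% for the other pairs of receptors. The longest coding stretch that both hold letter for letter had 129 bases. It spans chr1:170966674-170968081 in Fcgr2b and chr1:171054167-171057792 in Fcgr3, both on the minus strand of GRCm38 and both with introns between the coding parts.
Fcgr2b and Fcgr3 shared coding stretch: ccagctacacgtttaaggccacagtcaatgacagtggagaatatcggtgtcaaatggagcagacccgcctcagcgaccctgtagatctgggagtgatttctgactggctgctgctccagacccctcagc
Of the words of 31 bases in the annotated Fcgr3 transcripts, 13.4% also occur in Fcgr2b, and 4.15% of the Fcgr2b words occur in Fcgr3. How many reads could belong to either gene was not measured. Fcgr1 and Fcer1g shared no such word with any other gene.

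The library totals lay between 15940328 and 21825096 estimated counts. The 12 fixed neutrophil markers and the 12 macrophage markers were all above 0 in every library, which does not tell these cell types apart. Summed neutrophil markers were 6623 to 30990 CPM (counts scaled to a common library size) in ICAM1-low and 1499 to 4398 CPM in ICAM1-high libraries. In every ICAM1-high library the macrophage sum was the larger, at 8646, 5475, 5662 and 15790 against 2988, 4398, 2172 and 1499 CPM. In ICAM1-low libraries it was 792 to 1112 CPM, below the neutrophil sum. These sums cover different genes and were not divided by length, so which is larger does not measure the share of either cell type. Ly6g, the defining surface marker of mouse neutrophils, was at 25.9 to 41.1 CPM in ICAM1-low but near 0 in ICAM1-high libraries, at 0.095, 3.99, 1.98 and 1.66 CPM. Adgre1, which encodes the macrophage marker F4/80, was at 17.2 to 61.1 and 224 to 293 CPM. Icam1 itself ranged from 42.4 to 122 CPM in ICAM1-high libraries and from 4.31 to 18.7 CPM in 3 ICAM1-low libraries. The library labelled ICAM1-low replicate 5 had 138 CPM, the most of all 8 in CPM and unlike the others of its label. In TPM, which also divides counts by gene length, it was at 77.1, just below ICAM1-high replicate 5 at 80.4. The sort was on surface protein, which mRNA does not measure. The library labelled ICAM1-low replicate 5 also had the highest summed neutrophil markers (30990 CPM), and values that move with it are given below without it as well.

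All 5 genes had positive log2 fold changes in ICAM1-high against ICAM1-low libraries, as did 47.7% of all genes tested, but by very different amounts. Fcgr1 rose about 10.3-fold and Fcgr2b stood 3.51-fold higher without passing the test, whereas Fcgr3, Fcgr4 and Fcer1g stood 1.32-, 1.93- and 2.08-fold higher with overlapping groups. Of the 5 genes, 1 was called higher and 0 lower (quasi-likelihood test of edgeR, p adjusted by Benjamini-Hochberg and under 0.05), and DESeq2 and limma-voom each called 2 higher and 0 lower. Of the 13575 genes tested edgeR called 1.5%, 1.22% higher and 0.273% lower. DESeq2 called 584 of them higher and 642 lower, and limma-voom 460 and 349. At an unadjusted p under 0.05, 2 of the 5 were higher and 0 lower, against 7.96% and 8.96% of all genes. The groups did not overlap for 2 of the 5, Fcgr1 and Fcgr2b, both higher in ICAM1-high, as for 7.51% of all genes in that direction and 3.89% in the other. The median log2 fold change of the 5 was 1.06, and that of all genes tested was -0.065. In bulk libraries, fewer cells of a type and less RNA per cell cannot be told apart.

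**Figure D1:**
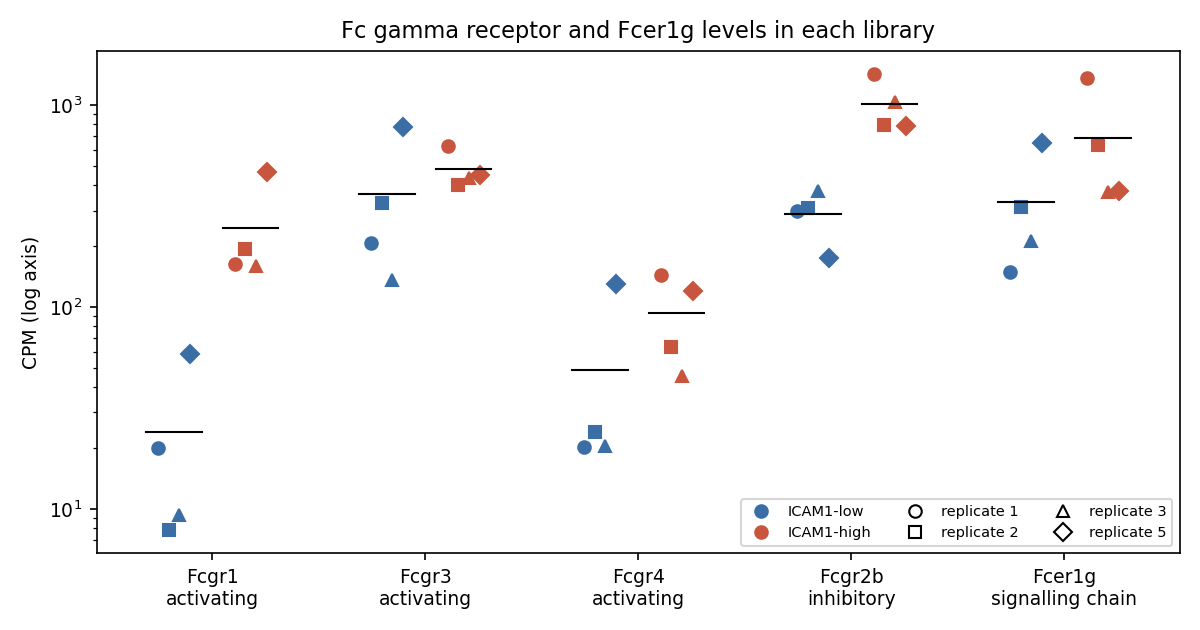
Level of each gene in CPM (log axis) in the 4 ICAM1-low and 4 ICAM1-high libraries, with 1 marker shape for each replicate number and a bar at the group mean. The groups are apart for Fcgr1 and Fcgr2b and overlap for the other genes, where ICAM1-low replicate 5 (blue diamond) lies among or above the ICAM1-high libraries.

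Fcgr1 (ENSMUSG00000015947), the high-affinity activating receptor, was at 20.1, 7.83, 9.37 and 58.2 CPM in the ICAM1-low libraries. In the ICAM1-high libraries it was at 162, 193, 160 and 465 CPM. Every ICAM1-high library was above every ICAM1-low library, and replicate 5 was the highest of each group. The means were 23.9 ± 23.5 and 245.1 ± 147.4 CPM (SD, n = 4). On the log2 scale the difference was 3.36 ± 0.73 (SE; edgeR adjusted p = 0.0486). Its p was the 186th smallest of the 13575 genes, just inside the threshold. With RLE scaling the adjusted p was 0.0575, and without any 1 of 7 of the libraries it was 0.0738 to 0.126, with log2 fold changes of 2.90 to 3.53. The difference was larger, at 4.29, once the library labelled ICAM1-low replicate 5 was left out (edgeR adjusted p = 0.0116).

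The promoters of Fcgr1 and Fcgr2b are shown because only these 2 of the 5 genes had groups that did not overlap. The sequences are the 150 bases before the RefSeq transcription start on GRCm38.p6, at chr3:96293970-96294119 for Fcgr1 and chr1:170976072-170976221 for Fcgr2b, both on the minus strand and written 5′ to 3′. Capitals mark matches to either of 2 motifs searched on both strands of the 250 bases before the start of all 5 genes: the interferon-stimulated response element (GAAA, 2 bases of any kind and GAAA again) and GAGGAA, a core of sites for the myeloid factor PU.1.
Fcgr1 promoter: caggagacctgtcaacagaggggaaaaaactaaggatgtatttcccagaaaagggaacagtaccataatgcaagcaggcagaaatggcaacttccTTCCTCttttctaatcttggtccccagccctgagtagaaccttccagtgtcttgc
Fcgr2b promoter: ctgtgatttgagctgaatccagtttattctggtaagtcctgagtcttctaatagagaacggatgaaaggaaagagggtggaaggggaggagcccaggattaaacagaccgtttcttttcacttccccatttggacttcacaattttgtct
The interferon-stimulated response element was found in Fcgr4 alone of the 5 and in 3.04% of 27025 promoters, and GAGGAA or its reverse complement TTCCTC in Fcgr1, Fcgr3 and Fcgr4 (23.1% of promoters). The match shown in the Fcgr1 promoter starts 55 bases before the start, and the Fcgr2b promoter held no match. These are matches of letters in this window and say nothing of binding. Other elements through which interferons act were not searched.

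Fcgr3 (ENSMUSG00000059498), a low-affinity activating receptor, was at 208, 328, 136 and 777 CPM in the ICAM1-low libraries. The ICAM1-high libraries were closer together, at 628, 403, 436 and 452 CPM. The groups overlapped only through the library labelled ICAM1-low replicate 5, which was the highest of all 8. The log2 fold change was 0.41 ± 0.55 (SE, n = 4 against 4; edgeR adjusted p = 0.750). It was 1.10 without the library labelled ICAM1-low replicate 5 (edgeR adjusted p = 0.153) and 0.14 without ICAM1-low replicate 3 (edgeR adjusted p = 0.919).

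Fcgr4 (ENSMUSG00000059089), the activating receptor for IgG2 complexes, showed the same arrangement at a lower level. It was at 20.2, 23.9, 20.6 and 129 CPM in the ICAM1-low libraries, and at 143, 63.4, 45.7 and 120 CPM in the ICAM1-high libraries. Of the ICAM1-low libraries, 3 lay close together and below every ICAM1-high library. In CPM the library labelled ICAM1-low replicate 5 was exceeded by ICAM1-high replicate 1 alone. In TPM (138) it was also below ICAM1-high replicate 5 (152). The log2 fold change was 0.94 ± 0.69 (SE; edgeR adjusted p = 0.522). Leaving out the library labelled ICAM1-low replicate 5 brought it to 2.11 and across the threshold (edgeR adjusted p = 0.0435), and without both libraries numbered 5 it was 1.97 and not past it (edgeR adjusted p = 0.0734).

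Fcgr2b (ENSMUSG00000026656), the only inhibitory receptor of the family, was at 299, 307, 373 and 174 CPM in the ICAM1-low libraries. It was at 1429, 796, 1032 and 789 CPM in the ICAM1-high libraries. All ICAM1-high libraries were above all ICAM1-low libraries, and here the library labelled ICAM1-low replicate 5 was the lowest, unlike for the other 4 genes. The means were 288 ± 83.1 and 1012 ± 300.4 CPM (SD, n = 4), and their difference on the log2 scale was 1.81 ± 0.44 (SE; edgeR adjusted p = 0.0706). The gene thus missed the threshold in the edgeR fit, and it passed with DESeq2 (1.76, adjusted p = 0.00307), with limma-voom (1.63, adjusted p = 0.0188) and without the library labelled ICAM1-low replicate 5 (1.64, edgeR adjusted p = 0.0435). Counted together with its paralog Fcgr3 as 1 feature, the log2 fold change was 1.20 ± 0.44 (SE; edgeR adjusted p = 0.204).

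Fcer1g (ENSMUSG00000058715), the shared ITAM chain, was at 149, 311, 212 and 644 CPM in the ICAM1-low libraries. In the ICAM1-high libraries it was at 1358, 636, 371 and 374 CPM. The ICAM1-high libraries were spread widely, and the library labelled ICAM1-low replicate 5 was above 3 of them in CPM. In TPM (1604) it was below ICAM1-high replicates 1 (3922) and 2 (2185). The log2 fold change was 1.06 ± 0.60 (SE; edgeR adjusted p = 0.402). It was 0.50 without ICAM1-high replicate 1 (edgeR adjusted p = 0.748) and 1.61 without the library labelled ICAM1-low replicate 5 (edgeR adjusted p = 0.119), so single libraries on either side set its size.

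**Figure D2:**
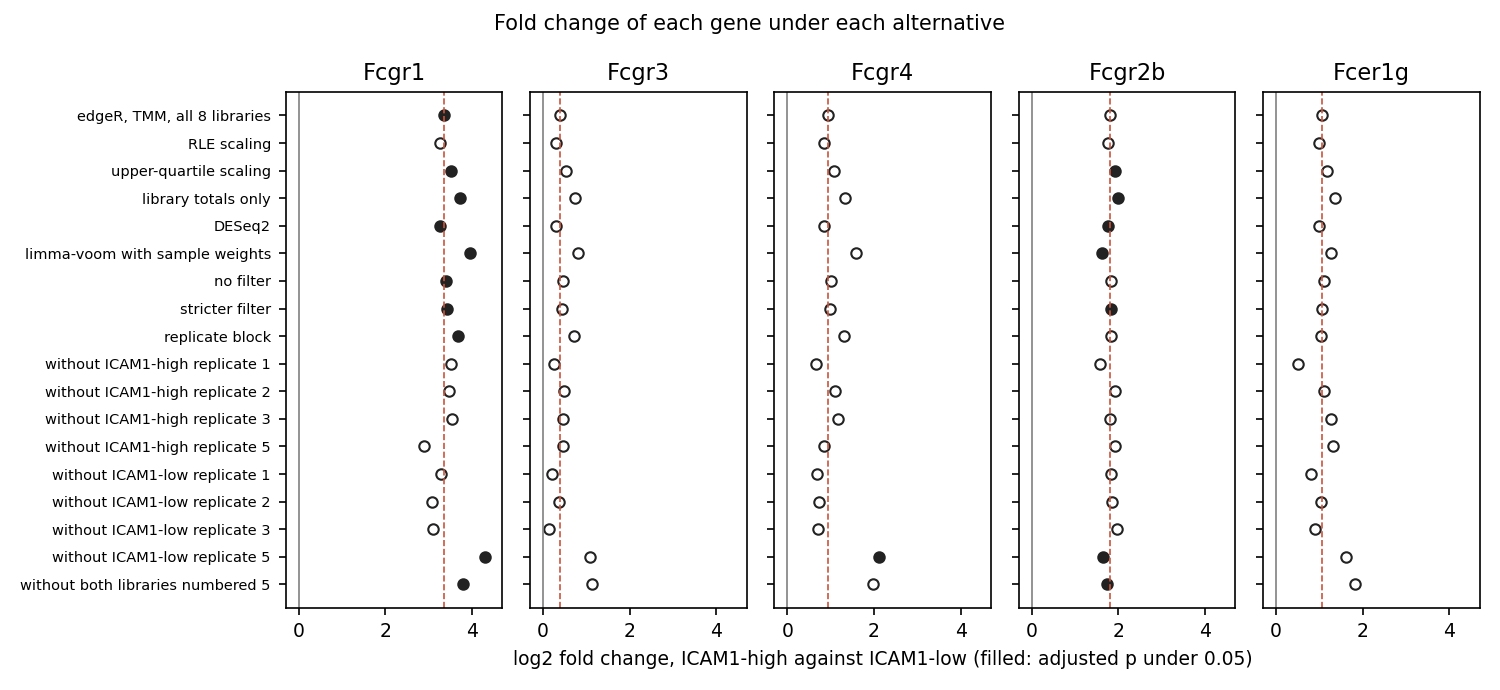
Log2 fold change of ICAM1-high against ICAM1-low for each gene (columns) under the edgeR fit and 17 alternatives (lines), filled where the adjusted p is under 0.05; the dashed line is the value with all 8 libraries. No fit put any of the 5 genes below 0. The calls of Fcgr1 and Fcgr2b changed with the scaling and the libraries left in, and that of Fcgr2b also with the tool and the filter. Fcgr4 was called only without ICAM1-low replicate 5.

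Levels of different genes were compared in TPM, a scale of transcript numbers that divides each gene's counts by its deposited length. Fcer1g was the most abundant of the 5 in all 8 libraries, at 954 ± 489 TPM in the ICAM1-low fraction and 2164 ± 1256 TPM in the ICAM1-high fraction (SD, n = 4). In ICAM1-low libraries Fcgr3 (419 ± 265 TPM) and Fcgr2b (268 ± 97.7 TPM) followed and were not in a fixed order, with Fcgr2b above Fcgr3 in 2 of 4 libraries. Fcgr4 (57.4 ± 54.0 TPM) was below Fcgr3 in all 4 and below Fcgr2b in 3 of 4, the exception being the library labelled ICAM1-low replicate 5, and Fcgr1 (13.6 ± 11.2 TPM) was below it in all 4. In ICAM1-high libraries Fcgr2b (974 ± 269 TPM) was above Fcgr3 (629 ± 95.4 TPM) in 4 of 4. Fcgr1 (159 ± 81.7 TPM) was above Fcgr4 (125 ± 48.0 TPM) in 3 of 4, a pair that lies within its spread.

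The make-up of the receptor pool does not depend on how libraries were scaled against each other, since it is a ratio within each library. Of the TPM of the 4 receptors, Fcgr1 made up 2.21%, 0.679%, 1.09% and 2.75% in the ICAM1-low libraries. In the ICAM1-high libraries it made up 4.30%, 8.49%, 6.11% and 16.9%, above every ICAM1-low library. Fcgr2b made up 47.6%, 38.5%, 62.6% and 11.8% in ICAM1-low and 54.8%, 50.6%, 57.2% and 41.4% in the ICAM1-high libraries. Its groups overlapped, and the low share belonged to the library labelled ICAM1-low replicate 5. Fcgr3 held a nearly constant 33.4 ± 1.14% in ICAM1-high libraries, against 51.4 ± 17.4% in ICAM1-low libraries, where single libraries ran from 31.3% to 72.5% (SD, n = 4). Fcgr4 made up 6.74 ± 4.08% and 6.70 ± 2.43% (SD, n = 4).

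**Figure D3:**
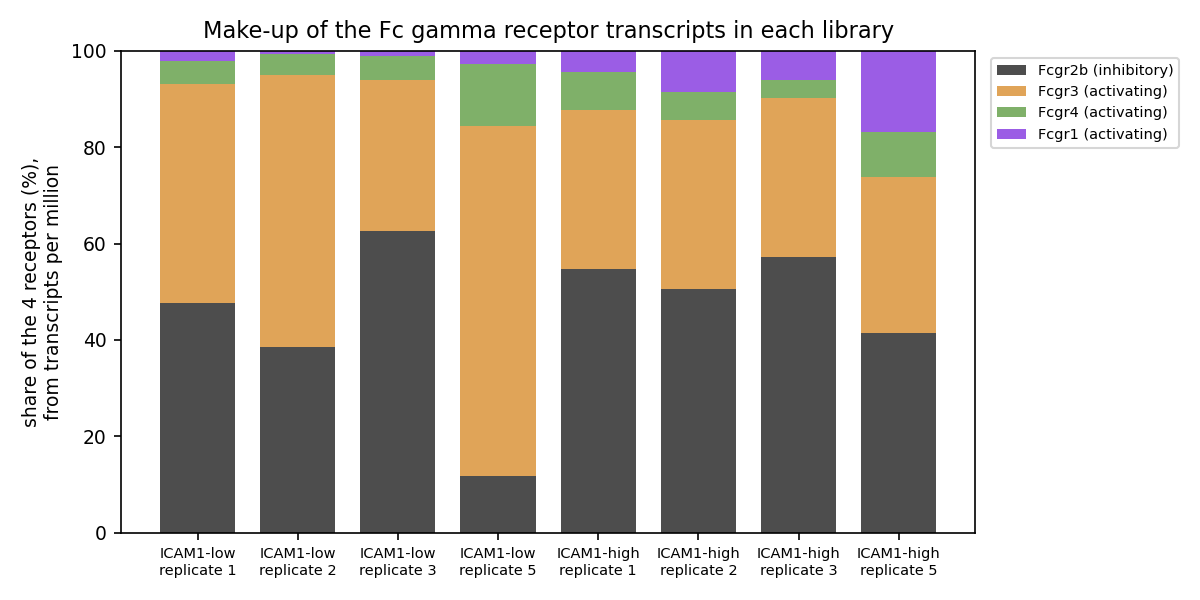
Share of each receptor in the summed TPM of the 4 Fc gamma receptors (vertical axis, percent) in each library (horizontal axis). Fcgr1 takes 4.30% to 16.9% in ICAM1-high and at most 2.75% in ICAM1-low libraries, and ICAM1-low replicate 5 is set apart by its small Fcgr2b share of 11.8%.

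The balance of activating and inhibitory receptor transcripts was taken as the summed TPM of Fcgr1, Fcgr3 and Fcgr4 over that of Fcgr2b. It was 1.10, 1.59, 0.597 and 7.44 in the ICAM1-low libraries, and 0.826, 0.977, 0.750 and 1.41 in the ICAM1-high libraries. On the log2 scale the means were 0.74 ± 1.55 for the ICAM1-low and -0.06 ± 0.40 for the ICAM1-high fraction (SD, n = 4), a difference well inside the spread of the ICAM1-low libraries. The ICAM1-low mean was 0.02 once the library labelled ICAM1-low replicate 5 was left out. Transcripts of the chain exceeded those of its 3 partner receptors in every library, with 1.54 to 3.22 Fcer1g transcripts per activating receptor transcript in ICAM1-low and 1.14 to 3.90 in ICAM1-high libraries. This order rests on the division by length, since Fcer1g is by far the shortest of the genes: in CPM, the mean ratios of the ICAM1-low and ICAM1-high fractions were 0.852 and 0.84. These ratios are descriptions and were not tested.

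The genes whose profiles over the 8 libraries were most like each receptor were taken from 7539 genes of at least moderate level. Likeness is the mean absolute difference of log2(CPM + 1) after centring each gene on its own mean, over 8 libraries that share the same scaling. For Fcgr1 they were the macrophage membrane gene Ms4a7 (0.384), the MHC class II loading gene H2-DMb1 (0.406) and the lipid transfer gene Pltp (0.470), against a median difference of 1.9 to all genes compared. For Fcgr2b they were Cttnbp2nl (0.195), the purinergic channel gene P2rx4 (0.200) and Gtpbp4 (0.212), with a median of 1.06. For Fcgr3 they were Nampt (0.140), Arrb2, a beta-arrestin gene (0.164), and Gpatch2l (0.173), with a median of 0.860. For Fcgr4 they were Klra2 (0.153), the MHC class I gene H2-K1 (0.177) and Rp2 (0.225), and for Fcer1g the kinase gene Prkcb (0.202), Efhd2 (0.206) and Ccdc82 (0.226). Among the 5 genes, Fcgr3, Fcgr4 and Fcer1g differed from one another by 0.484 to 0.500, and Fcgr2b differed from these by 0.733 to 0.849. Fcgr1 differed from each of the others by 1.16 to 1.45, which is below its median of 1.9 to all genes compared.

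Markers of other cell types moved between the fractions beside these receptors. Of 12 macrophage markers 8 were called higher and 0 lower by edgeR, and their summed level was 792 to 1112 CPM in ICAM1-low and 5475 to 15790 CPM in ICAM1-high libraries. DESeq2 and limma-voom each called 9 higher, but the edgeR count fell to 0 when ICAM1-low replicate 1 was left out, to 3 for ICAM1-low replicate 2, to 4 for ICAM1-high replicate 1 and to 5 for ICAM1-high replicate 2 or 5. None of the 12 was at 0 in any library. ICAM1-high replicate 5, the library with the most Fcgr1, also had the highest macrophage sum. Of 12 neutrophil markers 6 were called lower and 0 higher, with none at 0 in any library. DESeq2 called 11 lower and limma-voom 9, but edgeR called 0 without replicate 1 of either fraction and 1 without replicate 2 of either fraction or without ICAM1-high replicate 3 or 5. In the library labelled ICAM1-low replicate 5, where Fcgr3 was highest and Fcgr2b lowest, the neutrophil sum was the highest. The part of either cell type in the receptor levels was not tested. Summed B and plasma cell markers were 49.1 to 415 CPM in ICAM1-low and 278 to 2072 CPM in ICAM1-high libraries, and B cells are known to carry Fcgr2b as well. Summed T and NK cell markers were 2.10 to 40.3 and 61.4 to 189.9 CPM, dendritic cell markers 15.3 to 196.3 and 236.5 to 525.2 CPM, and mast cell and basophil markers 52.4 to 176.2 and 5.58 to 71.5 CPM. Of 6 monocyte markers 3 were called higher and 1 lower by edgeR, DESeq2 and limma-voom alike, while their sums of 503.8 to 1548 and 1040 to 1775 CPM overlapped; leaving out 1 library gave 0 to 3 higher, with 0 without ICAM1-low replicate 1. Of the 6, 3 had a positive log2 fold change. Of the chemokine receptor genes of this list, named after their values were seen, Ccr2 was at 13.7 to 44.9 against 274.8 to 449.7 CPM. Cx3cr1 was at 16.1 to 80.0 against 383.5 to 606.8 CPM. Ly6c2, likewise named later, went the other way, at 58.4 to 143.2 in ICAM1-low and 6.81 to 33.7 CPM in ICAM1-high libraries. F13a1, also named later, was at 105.8 to 1265 and 70.4 to 743.3 CPM. Fibroblast markers summed to 1504 to 2345 and 430.5 to 1909 CPM, endothelial markers to 1.597 to 25.8 and 19.2 to 65.7 CPM, and epithelial tumour markers to 0.319 to 68.5 and 8.12 to 24.5 CPM.

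**Figure D4:**
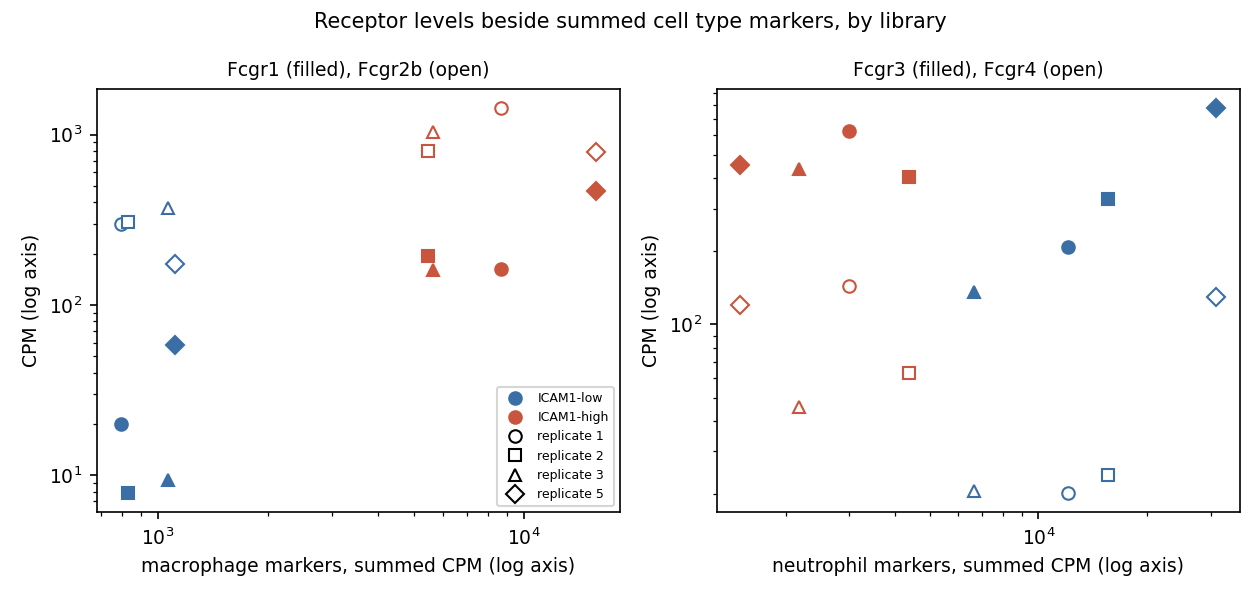
Receptor CPM (vertical log axes) beside summed marker CPM (horizontal log axes) in each of the 8 libraries, with Fcgr1 and Fcgr2b against 12 macrophage markers (left) and Fcgr3 and Fcgr4 against 12 neutrophil markers (right). The macrophage sums leave a gap between 1112 and 5475 CPM that separates the fractions, and ICAM1-low replicate 5 has the highest neutrophil sum together with the highest Fcgr3.

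The genes around the receptors were taken from 7 lists of ligands, partner receptors, signalling genes and effectors. Over all 13575 genes tested, edgeR called 1.22% higher and 0.273% lower. DESeq2 called 584 higher and 642 lower of the same genes, and limma-voom 460 and 349. Of the 4 IgG heavy chain genes, the ligands, only Ighg2b could be tested. It was at 5.84, 21.4, 0 and 36.9 CPM in the ICAM1-high libraries and at 0.949 CPM in ICAM1-low replicate 2, and it was listed at 0 in the other ICAM1-low libraries. It did not pass the test (edgeR adjusted p = 0.182). Ighg1 was found in 1 library only, ICAM1-high, at 39.1 CPM.

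Among other receptors for antibodies and their relatives, 8 of 14 listed genes were tested and 1 was called higher, with 0 lower and a median log2 fold change of 2.49. DESeq2 called 2 higher and limma-voom 1, and edgeR called 2 without the library labelled ICAM1-low replicate 5, where the median was 3.79, and 0 when replicate 1 of that fraction was left out. With limma-voom the median was 4.10, and DESeq2 gave no adjusted p for Fcer2a. Fcrls, an Fc receptor-like gene known from microglia and macrophages, was at 47.8, 114, 45.8 and 95.7 CPM in the ICAM1-low libraries. It was at 481, 664, 674 and 1002 CPM in the ICAM1-high libraries, so the groups were wide apart. Its log2 fold change was 3.22 ± 0.50 (SE, n = 4 against 4; edgeR adjusted p = 0.0146), and without ICAM1-low replicate 1 the adjusted p was 0.0586. Fcgrt, the neonatal Fc receptor that protects IgG from breakdown, was chosen for its role after its values were seen. It was at 61.2 ± 34.8 and 139.9 ± 61.9 CPM (SD, n = 4; edgeR adjusted p = 0.326).

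Other receptors that depend on the Fcer1g chain did not share a direction, with 4 of 9 tested genes positive and a median log2 fold change of -0.63, which was 0.21 with limma-voom and -0.33 without the library labelled ICAM1-low replicate 5. edgeR called 0, with 2 higher and 2 lower at an unadjusted p under 0.05, against 7.96% and 8.96% of all genes. DESeq2 called 1 higher and 1 lower, and limma-voom 2 higher and 0 lower. For Clec4d DESeq2 gave no adjusted p, so it could not be called there. The foremost was Ncr1, an activating receptor of natural killer cells, at 5.41 to 16.6 CPM in ICAM1-high and 0 to 1.12 CPM in ICAM1-low libraries (edgeR adjusted p = 0.144), and it was called higher by DESeq2 and limma-voom. The C-type lectin receptors for fungal and bacterial lipids and sugars, named after their values were seen, were split: Clec4e (Mincle) had a log2 fold change of -2.18 ± 0.68 and Clec4d of -2.11 ± 0.70, while Clec4n (Dectin-2) had 1.81 ± 0.66 (SE; edgeR adjusted p from 0.144 to 0.205). In the library labelled ICAM1-low replicate 5 Clec4e reached 2431 CPM, against 303 to 603 CPM in the other ICAM1-low libraries, and Clec4d was at 1248 against 175.0 to 269.6 CPM. Leaving that library out brought Clec4e to -1.15 and Clec4d to -0.97 (edgeR adjusted p = 0.162 and 0.235), and brought Clec4n to 2.97 and past the threshold (edgeR adjusted p = 0.0116).

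Of the other ITAM-bearing or related chains, 6 of 8 were tested, all with positive values and a median of 2.31. edgeR called 0 of them, DESeq2 called 1 higher and limma-voom 0. At an unadjusted p under 0.05 by edgeR, 2 were higher and 0 lower, against 7.96% and 8.96% of all genes. The foremost, Cd247 of T and NK cell receptors, stood at a log2 fold change of 3.62 with an SE of 1.39 (edgeR, adjusted p = 0.224). Tyrobp, the myeloid counterpart of Fcer1g and chosen for that role after its value was seen, had means of 176 CPM in ICAM1-low and 192 CPM in ICAM1-high libraries and a log2 fold change of 0.13 with an SE of 0.66 (edgeR, adjusted p = 0.943). It was 0.80 without the library labelled ICAM1-low replicate 5 (edgeR adjusted p = 0.484).

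Downstream of the ITAM, 21 kinase, adaptor and lipase genes were tested, and 1 was called higher and 0 lower, with a median log2 fold change of 0.14. DESeq2 and limma-voom each called 3 higher and 0 lower, but DESeq2 gave no adjusted p for Syk and Lcp2. The median was 0.70 with limma-voom, 1.08 without the library labelled ICAM1-low replicate 5 (2 called higher) and -0.05 without ICAM1-low replicate 1 or 3. Blnk, an adaptor that links Syk to phospholipase C gamma and is best known from B cells, was at 4.66, 16.4, 8.89 and 9.47 CPM in the ICAM1-low libraries. It was at 55.1, 107, 93.2 and 157 CPM in the ICAM1-high libraries. The groups did not overlap, and the log2 fold change was 3.39 ± 0.56 (SE; edgeR adjusted p = 0.0172). The adjusted p rose to 0.0617 when ICAM1-low replicate 1 was left out, to 0.0599 when ICAM1-high replicate 2 was, and to 0.0625 when ICAM1-high replicate 5 was. Syk, the kinase that docks on the phosphorylated ITAM and was chosen for that role after its value was seen, was at 221.0, 273.5, 144.1 and 1623 CPM in the ICAM1-low and 136.3 to 260.6 CPM in the ICAM1-high libraries. Its log2 fold change of -1.47 with an SE of 0.73 (edgeR, adjusted p = 0.332) rested on 1 library, and it was -0.06 without the library labelled ICAM1-low replicate 5 (edgeR adjusted p = 0.953).

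Of 13 tested genes of inhibitory signalling, edgeR called 0, and their median was 0.34. At an unadjusted p under 0.05 by edgeR, 0 were higher and 1 lower, against 7.96% and 8.96% of all genes. DESeq2 called 1 lower and limma-voom 0. The foremost was Pag1, a membrane adaptor for the inhibitory kinase Csk, at a log2 fold change of -1.86 with an SE of 0.56 (edgeR, adjusted p = 0.133), or -1.23 without the library labelled ICAM1-low replicate 5 (edgeR adjusted p = 0.147). Inpp5d, which encodes SHIP1, the phosphatase that acts behind the Fcgr2b ITIM, was named for that role after its value was seen. It was at 92.8, 222.5, 55.6 and 620 CPM in the ICAM1-low and 296.5 to 432.6 CPM in the ICAM1-high libraries, which overlapped only through the library labelled ICAM1-low replicate 5. Its difference on the log2 scale was 0.61 ± 0.66 (SE; edgeR adjusted p = 0.682), and 1.61 without that library (edgeR adjusted p = 0.0916). Of 17 genes of the actin machinery of phagocytosis, edgeR and DESeq2 called 0 and limma-voom 1 higher. At an unadjusted p under 0.05 by edgeR, 1 was higher and 0 lower, against 7.96% and 8.96% of all genes. The median of the 17 was 0.34, or 0.51 without the library labelled ICAM1-low replicate 5. Foremost was the myosin gene Myo1g, at 1.65 ± 0.54 (SE; edgeR adjusted p = 0.160), which passed the test at 2.17 without that library (edgeR adjusted p = 0.0377).

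**Figure D5:**
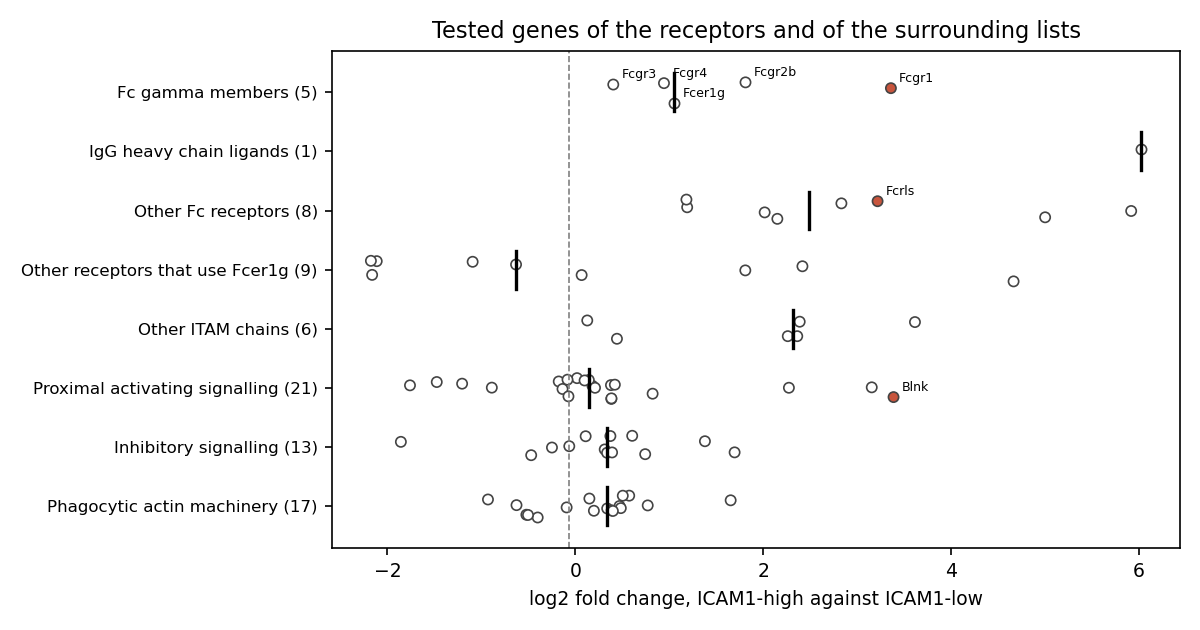
Log2 fold change (horizontal axis) of every tested gene in each list (number tested in parentheses), with a black bar at the list's median, filled points where the edgeR adjusted p is under 0.05, and a dashed line at the median of all genes, -0.065. Fcgr1, Fcrls and Blnk are the 3 genes past the threshold, and the medians of the 3 lists of signalling and actin genes lie between 0.14 and 0.34 in this fit of all 8 libraries.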

How the data were processed

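Per the labels' protocols, the RNA of the mouse cells sorted as neutrophils was purified by RNeasy Micro columns. The QIAseq FX chemistry for single-cell RNA, made for minute inputs, turned it into the 8 libraries. Trim Galore 0.6.6, Salmon 1.9.0 and GRCm39 (mm39) are named in the submitters' processing notes, while the annotation and how transcripts were summed are not stated in the sources used here. Per the file headers, 1 deposited table holds a column of estimated counts for each library, not rounded to whole numbers, and 1 length per gene.

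Repeated identifiers (88, with identical values) were kept once, and 6482 genes took their symbol from a reference table that held 25343 of the 25572 identifiers. Counts were rounded, filtered with filterByExpr, scaled by TMM and compared with edgeR 4.0.16 in R 4.3.3 (robust quasi-likelihood test, group as the only term, adjusted p under 0.05 over all genes tested). The SE is the log2 fold change over the square root of F. CPM use TMM library sizes, and TPM use the deposited counts and lengths. The steps were tested on simulated data.

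The 5 genes, the 7 surrounding and 10 cell type lists, the tests and the alternatives were chosen with earlier results of these data known. Genes named were the 5, Icam1, of each surrounding list those past the threshold among the 4 with the smallest p or otherwise the foremost, and the 3 genes most like each receptor (average log2 CPM of 4 or more, no predicted genes); others are marked as chosen later. Alternatives were other scalings, DESeq2 1.42.0, limma-voom 3.58.1 with sample weights, other filters, a replicate term, each library left out, both libraries numbered 5 left out, Fcgr2b and Fcgr3 summed, and shares from CPM. Promoters are from RefSeq (GRCm38.p6, found for all 5 genes) and coding sequences from GENCODE M21 (GRCm38), not the build of the counts. Listed symbols not matched were left out. Without molecular identifiers in the sources used here, counts need not equal molecules.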

Additional observations from a re-analysis of the deposited data

Results flagged for a closer look

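In 58 groups of 4 libraries searched (receptor levels and shares, named genes and marker sums), 7 values stood apart, some of them from the same library. Each had a gap to the nearest value that took up more of the group's range than the 95% critical value of Dixon's test. For independent, normally distributed values chance gives about 1 in 20 groups. The groups searched share libraries and genes, so the rate here is not known. The library labelled ICAM1-low replicate 5 held 4 of the 7: Fcgr4 at 129 CPM, an Fcgr4 share of 12.8% of the 4 receptors, Icam1 at 138 CPM and summed epithelial tumour markers at 68.5 CPM. Fcgr1 at 465 CPM in ICAM1-high replicate 5 was far above the other ICAM1-high libraries. Ncr1 was at 16.6 CPM in ICAM1-high replicate 2, and Ighg2b at 0.949 CPM in ICAM1-low replicate 2, where the other ICAM1-low libraries were listed at 0.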

How the results depend on the processing

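All 5 genes kept a positive log2 fold change in each of the 17 alternatives to the gene fit. Fcgr1 was past the threshold in 9 of them, Fcgr2b in 7, Fcgr4 in 1, and Fcgr3 and Fcer1g in 0. Fcgr1 had 3.25 and was not past it with RLE scaling, and leaving out 1 library gave 2.90 to 4.29. Fcgr2b was past it with upper-quartile scaling (1.93), library totals only (1.98), DESeq2 (1.76), limma-voom (1.63), the stricter filter of 10 CPM in at least 4 libraries (1.83) and without both libraries numbered 5 (1.75), and leaving out 1 library gave 1.58 to 1.96. For Fcgr4, leaving out 1 library gave 0.66 to 2.11. Of the 5 genes, 0 were called with RLE scaling, 2 with upper-quartile scaling, library totals only, DESeq2, limma-voom, the stricter filter and without both libraries numbered 5, and 0 to 3 when 1 library was left out.

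Among all genes 166 were higher and 37 lower. With DESeq2 584 were higher and 642 lower, with limma-voom 460 and 349, with library totals 258 higher, without a filter 120 lower, with the stricter filter 61 lower, and without both libraries numbered 5 190 lower. Leaving out 1 library gave 4 to 337 higher and 0 to 241 lower, the fewest without ICAM1-low replicate 1 and the most without the library labelled ICAM1-low replicate 5. Over all genes the median was 0.17 with library totals only, 0.06 with upper-quartile scaling, 0.09 with limma-voom and with the replicate block and 0.11 without a filter, against -0.07 with TMM. It was lower, at -0.13, with RLE scaling and with DESeq2, and leaving out 1 library gave -0.11 to 0.07. These shifts are to be set beside the values above. The replicate block gave 280 higher and 261 lower genes, with Fcgr1 at 3.68 (edgeR adjusted p = 0.00861) and Fcgr2b at 1.82 (edgeR adjusted p = 0.0634), and changed no call of the 5 genes; of the other named genes it changed that of Ighg2b alone, at 7.25 (edgeR adjusted p = 0.0488). Whether the numbers pair the libraries is not settled. Deviations from the group means of libraries 1, 2, 3 and 5 correlated across genes by -0.18, 0.11, 0.17 and 0.37. The highest correlation of each ICAM1-high library with an ICAM1-low library of another number was 0.16, 0.078, 0.17 and 0.076. Those numbered 5 thus correlated best with their own number, and those numbered 2 did so by little. Those numbered 3 did equally well with another number, and those numbered 1 did better with another number. Not dividing by length moved the mean Fcgr1 share in ICAM1-low libraries to 2.93% and the Fcgr3 share in ICAM1-high libraries to 26.3%; the other means of shares and of the activating balance moved by less than 1 SD, while the mean of Fcer1g over its partner receptors went from 2.15 to 0.852 and from 2.36 to 0.84.

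The biological coefficient of variation was 0.858 with 4 libraries a group, which limits the precision of every fold change given.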
